A study of Mus musculus with 6 samples.

Results

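The actin cytoskeleton and focal adhesion genes were followed in mouse induced pluripotent stem (iPS) cells that received human NAC1. The list held 36 genes, taken by symbol or synonym from the array, and a gene counted as measured when at least 1 of its probes was detected on both arrays of at least 1 day. Detected means a detection p-value under 0.05 against the negative control beads of that array. By this rule 28 of the 36 genes were measured, with 48 of their 78 probes, out of 12030 measured genes and 17471 of 45281 probes in all. The other 8 genes were Acta2, Actg2, Tagln, Cnn1, Cald1, Tln1, Ankrd1 and Cnn3, and Cnn3 had no probe.

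All cells lacked mouse Nac1 and came from 2 null iPS lines, clone 7 and clone 5, each derived as a single clone. They were sampled on day 0, day 2 and day 5 of the rescue with human NAC1 (hNAC1), with 1 Illumina bead array per clone and day, so n = 2 arrays per day. The study asked which genes follow the return of NAC1. There was no unrescued culture followed over time, so what the rescue did and what days of culture did cannot be told apart.

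Actin filaments are cross-linked, bundled and pulled on by myosin, and they end at focal adhesions, where integrins in the membrane hold the extracellular matrix. Talin and vinculin carry force from integrins to actin, and paxillin, zyxin and other LIM-domain proteins gather there. Free actin monomer holds back cofactors of the transcription factor SRF, and tension favours nuclear YAP, so many of these genes are themselves targets of SRF or of YAP with TEAD factors. Pluripotent mouse stem cells grow in compact colonies with few stress fibres, whereas fibroblasts have many.

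Each array detected 16739 to 18150 probes, which is 37.0% to 40.1% of them, with a median bead signal of 93.4 to 95.9. All 10 genes of a pluripotency marker list, among them Pou5f1, Nanog and Sox2, were measured, and their summed normalised signal was 35252 to 35831 on day 0, 37062 to 40586 on day 2 and 33020 to 37196 on day 5. The brightest, Dppa5a, stood at 14.03 to 14.13 on the log2 scale on all 6 arrays and weighs most in the sum. The sum therefore does not show that each gene was level. On day 5 against day 0 the log2 change was -0.66 for Pou5f1, -0.40 for Sox2 and 0.52 for Nanog, with 4 of the 10 above 0 and 6 below. Of 16 fibroblast markers 4 were measured, Thy1, Fbn1, Twist1 and Fstl1, while Col1a1, Col1a2, Col3a1, Pdgfra, Pdgfrb, Postn, Lum and Dcn were not. The smooth muscle list had 3 of 8 markers measured, Smtn, Des and Smtnl1, without Myh11, Mylk or Myocd. No marker passed the test in any comparison. A lower signal in these bulk cells can mean fewer cells of a type or less RNA per cell, which cannot be told apart.

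Promoters of 4 members are shown because 3 of them, Tes, Myh9 and Lasp1, passed the test between days, and the fourth, Vcl, carries a CArG box, the letters bound by SRF. The 300-base sequences are RefSeq's for the mouse assembly GRCm38.p6, on the strand of the gene, and run from upstream of the start site into the transcript. Capitals mark the motifs searched on both strands, which were the CArG box, the TEAD site GGAATG, the Zeb1 E-box CAGGTG and the GC box GGGCGG. The promoters lie at chr6:17064899-17065198 (plus strand) for Tes, chr15:77842126-77842425 (minus strand) for Myh9, chr11:97799315-97799614 (plus strand) for Lasp1 and chr14:20929148-20929447 (plus strand) for Vcl.
Tes: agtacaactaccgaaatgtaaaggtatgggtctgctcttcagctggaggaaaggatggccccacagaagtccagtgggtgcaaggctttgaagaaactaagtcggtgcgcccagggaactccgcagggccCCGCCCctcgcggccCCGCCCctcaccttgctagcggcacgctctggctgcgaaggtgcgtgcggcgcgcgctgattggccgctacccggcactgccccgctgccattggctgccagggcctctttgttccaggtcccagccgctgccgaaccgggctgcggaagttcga
Myh9: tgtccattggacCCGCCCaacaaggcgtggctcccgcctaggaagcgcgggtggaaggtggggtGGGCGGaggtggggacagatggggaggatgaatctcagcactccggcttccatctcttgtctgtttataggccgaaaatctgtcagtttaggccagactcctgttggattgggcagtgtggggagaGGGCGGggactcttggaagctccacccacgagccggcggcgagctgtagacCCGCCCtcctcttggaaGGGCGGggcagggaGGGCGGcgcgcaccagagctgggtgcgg
Lasp1: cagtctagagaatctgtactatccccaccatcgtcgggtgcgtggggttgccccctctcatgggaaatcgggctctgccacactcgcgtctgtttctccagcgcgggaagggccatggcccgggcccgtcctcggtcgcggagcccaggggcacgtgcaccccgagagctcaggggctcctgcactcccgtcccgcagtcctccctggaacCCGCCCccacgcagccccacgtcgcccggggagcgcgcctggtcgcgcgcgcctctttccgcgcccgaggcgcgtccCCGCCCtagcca
Vcl: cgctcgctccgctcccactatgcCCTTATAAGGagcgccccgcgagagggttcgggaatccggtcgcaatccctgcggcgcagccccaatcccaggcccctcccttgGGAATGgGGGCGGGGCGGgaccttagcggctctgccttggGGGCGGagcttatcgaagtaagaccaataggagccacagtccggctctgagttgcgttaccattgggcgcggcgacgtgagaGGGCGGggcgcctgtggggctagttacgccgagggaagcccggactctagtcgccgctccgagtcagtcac
Tes and Lasp1 each held 2 GC boxes and Myh9 held 6, and none of these 3 windows held a CArG box, a GGAATG or a CAGGTG. Vcl held a CArG box 227 to 218 bases upstream of its start, a GGAATG 143 to 138 bases upstream and 4 GC boxes, of which 1 pair overlaps.

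A promoter was found for 32 of the 36 genes, 37 promoters in all, and none for Ctgf, Actg2, Pxn and Tagln. The CArG box occurred in the promoters of Cnn2, Myl9 and Vcl, which is 8.11% of the member promoters, against 1.39% of the 10355 promoters of measured genes and 1.63% of all 32851 promoters. GGAATG occurred in 32.4% of member promoters, against 12% of promoters of measured genes and 14.7% of all. CAGGTG was in 10.8%, against 18.3% and 20.2%, and GGGCGG in 73%, against 63.5% and 35.7%. These shares are a description of the listed genes, and a match is not a site shown to be bound.

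By day 5, 3 of the 28 measured members had changed at a Benjamini-Hochberg adjusted p under 0.05 in limma, which is 10.7% of them, against 4.26% of all genes. The members were chosen with earlier results of these data known, so member shares here and below are a description and not a test of the list. Tes rose, and Myh9 and Lasp1 fell, so 1 member was higher (2.46% of all genes) and 2 were lower (1.8% of all genes). Between day 5 and day 2, Tes alone passed (3.57% of members, against 0.79% of all genes, or 0.59% counting higher genes). Between day 2 and day 0 no member passed in limma (0% of all genes did), with 4 members and 1630 genes at an unadjusted p under 0.05. The authors' unpaired test, run on the same values, gave 3 members at an unadjusted p under 0.05 in that comparison and none after adjustment. The median member change was -0.01 on the log2 scale on day 5 against day 0, with 13 above 0 and 15 below, and the median over all genes was 0.00. At least 2-fold in the same direction in both clones, 1 member differed on day 5 against day 0 (Tes, against 2.06% of all genes), 1 on day 5 against day 2 (Tes, against 1.26%) and 1 on day 2 against day 0 (Itgb1, against 0.366%).

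**Figure D1:**
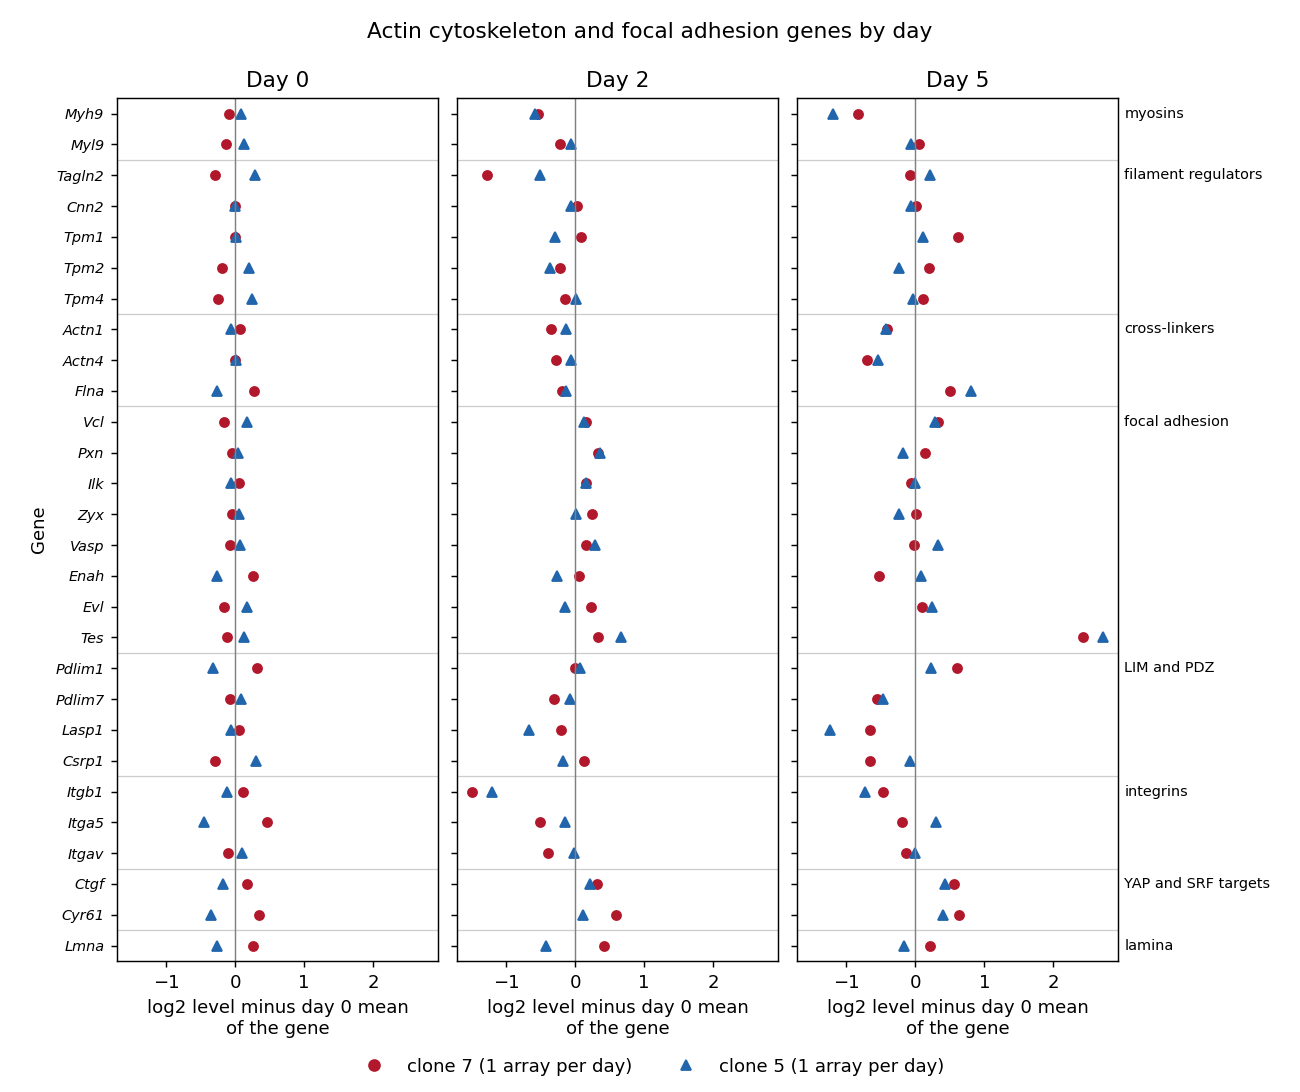
Each row is 1 of the 28 measured genes, ordered by role, and the horizontal axis is the normalised log2 signal minus the mean of the day 0 arrays for that gene, with a panel for each day. Circles are clone 7 and triangles clone 5, with 1 array each per day. On day 5 Tes lies far to the right in both clones, and Myh9 and Lasp1 lie left of 0 in both; on day 2 Itgb1 lies farthest left in both.

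Tes encodes testin, a LIM-domain protein of focal adhesions and stress fibres that binds zyxin and the Ena/VASP protein Mena. Its normalised log2 signal was 7.12 in clone 7 and 7.37 in clone 5 on day 0, 7.57 and 7.91 on day 2, and 9.68 and 9.97 on day 5. Both day 5 arrays stood above all 4 earlier arrays, and both day 2 arrays above both day 0 arrays. With 2 arrays per day, days can separate like this by chance, and the share of all genes that do so was not counted. The same limit holds for each member described below. On the deposited scale the bead signal was 867 in clone 7 and 1119 in clone 5 on day 5, against 210 and 235 on day 0. The rise on day 5 against day 0 was 2.58 ± 0.16 (SE) on the log2 scale, 5.99-fold (limma, adjusted p = 0.0019). It was 2.56 in clone 7 and 2.60 in clone 5, so the clones differed by less than the standard error, which draws mostly on the spread of all genes.

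Most of the Tes difference lay between the later days. Day 5 exceeded day 2 by 2.09 ± 0.16 (SE), 4.25-fold (limma, adjusted p = 0.016), a call lost without the day 2 array of clone 7 (adjusted p = 0.225) or of clone 5 (adjusted p = 0.0558). Day 2 exceeded day 0 by 0.50 ± 0.16 (SE), which did not pass (limma, adjusted p = 0.287), although both clones read higher on day 2. A second detected probe rose by 2.68, 6.41-fold (limma over all probes, adjusted p = 0.0018), and another, dimmer probe by 1.85, 3.62-fold (adjusted p = 0.0126). That dimmer probe was detected on 1 of the 2 day 0 arrays, so its fold rests on a day 0 level at the background. The fourth Tes probe was detected on no array. The sum of the 3 measured smooth muscle markers was 265 to 346 on day 0, 274 to 313 on day 2 and 381 to 422 on day 5, though not each marker read higher on day 5 in each clone, and their part in the Tes value was not tested. The authors' deposited table, under their own processing, lists 3 Tes probes with log2 changes of 2.73, 2.83 and 3.12 between day 5 and day 0. The 3.12 belongs to the dimmest of these, which stood there at 2.82 in clone 5 and 3.38 in clone 7 on day 0, so it is the least certain of the 3.

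Among the myosins and actins, Myh9, the heavy chain of non-muscle myosin IIA that pulls on stress fibres, fell by day 5. Its log2 signal was 9.33 in clone 7 and 9.50 in clone 5 on day 0, 8.87 and 8.83 on day 2, and 8.58 and 8.22 on day 5. The 3 days did not overlap, and each clone was lower on each later day, an order whose share over all genes was not counted. Day 5 fell by 1.01 ± 0.19 (SE) relative to day 0, 2.02-fold (limma, adjusted p = 0.035), with changes of -0.75 in clone 7 and -1.28 in clone 5. Neither day 2 against day 0 (-0.56, adjusted p = 0.296) nor day 5 against day 2 (-0.45, adjusted p = 0.280) passed in limma. The authors' deposited table gives -1.04 for day 5 against day 0 and -0.59 for day 2 against day 0. Their own test gave unadjusted p-values of 0.039 and 0.023 for these. A second Myh9 probe was detected on no array. The call was kept without the day 5 array of clone 7 and lost without any of the other 5 arrays, with adjusted p from 0.0396 to 0.106, and without clone as a block the adjusted p was 0.0509.

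Myl9, the regulatory light chain that switches such myosins on, was at the limit of detection. It was detected on 3 of 6 arrays and on neither day 2 array, and its change on day 5 against day 0 was -0.00 ± 0.18 (SE, adjusted p = 0.994). Against the lowest detected signal, day 2 was at least 1.01-fold lower than day 0, which is no measurable difference. The smooth muscle actins Acta2 and Actg2 were not measured.

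Among LIM and PDZ proteins, Lasp1, a LIM and SH3 protein that binds actin at adhesions and the leading edge, fell by day 5. Its log2 signal was 11.55 in clone 7 and 11.43 in clone 5 on day 0, 11.29 and 10.83 on day 2, and 10.84 and 10.26 on day 5. Both day 0 arrays stood above the others, while the clone 5 array of day 2 and the clone 7 array of day 5 were nearly level. The fall on day 5 against day 0 was -0.94 ± 0.19 (SE), 1.92-fold (limma, adjusted p = 0.039), with -0.71 in clone 7 and -1.17 in clone 5. Its other probes gave -1.07 (limma over all probes, adjusted p = 0.0751) and -0.63 (adjusted p = 0.202), below 0 but not past the test. Among the members, the authors' deposited table lists only Tes and Myh9, so it holds no Lasp1 value. The Lasp1 call was lost without any 1 of the 6 arrays (adjusted p 0.0643 to 0.121) and without clone as a block (adjusted p = 0.119).

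The other LIM and PDZ members did not pass. Pdlim7, which binds tropomyosin through its PDZ domain, read -0.51 on day 5 against day 0 (limma, adjusted p = 0.136) with both clones below 0. Pdlim1, a partner of alpha-actinin, read 0.42 (adjusted p = 0.308), and Csrp1, a LIM-only protein of actin bundles, read -0.37 (adjusted p = 0.453).

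**Figure D2:**
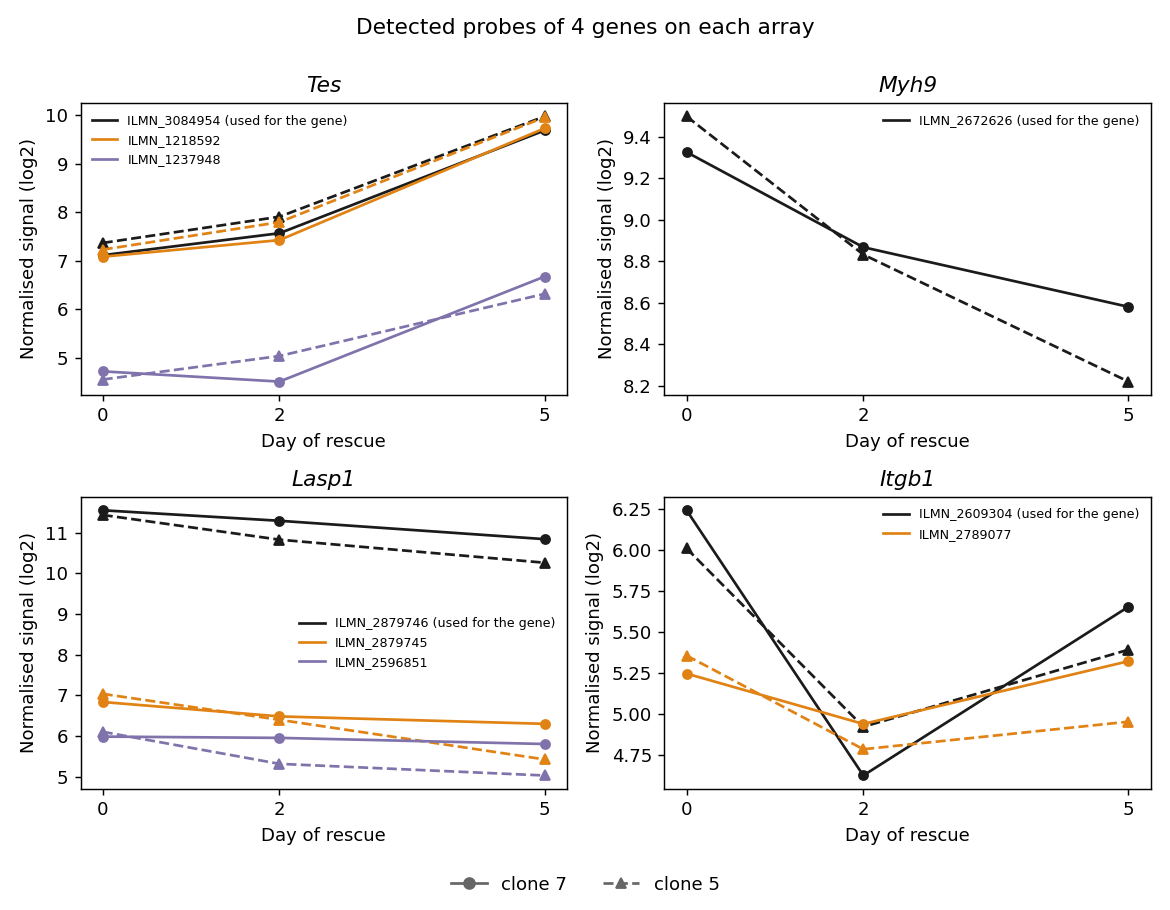
Each panel shows the normalised log2 signal of every detected probe of Tes, Myh9, Lasp1 or Itgb1 against the day of rescue, with solid lines and circles for clone 7, dashed lines and triangles for clone 5, and a colour per probe. The vertical ranges differ between panels. All 3 Tes probes end highest on day 5, the Myh9 and Lasp1 probes end lowest on day 5, and the Itgb1 probes are lowest on day 2.

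Of the 48 detected member probes, each tested on its own, 5 passed on day 5 against day 0 in limma, which is 10.4%, against 3.66% of all probes. On day 5 against day 2 the 3 Tes probes passed, which is 6.25%, against 0.693% of all probes, and no member probe passed on day 2 against day 0 or between clones (0% of all probes). They were the 3 Tes probes, the Myh9 probe and 1 of 3 Lasp1 probes. Probes of 1 gene read the same transcripts and are not independent samples.

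Integrins are the adhesion receptors. Itgb1, the beta subunit shared by most matrix-binding integrins, was the only member that read at least 2-fold lower in both clones on day 2 than on day 0 (0.249% of all genes did). Its log2 signal was 6.24 in clone 7 and 6.01 in clone 5 on day 0, 4.62 and 4.92 on day 2, and 5.65 and 5.39 on day 5. The days did not overlap, with day 2 lowest and day 5 between, an order whose share over all genes was not counted. Its signal was low throughout, with deposited bead signals of 98.4 to 150, and 1 of the 2 day 2 arrays, that of clone 7, did not detect it. Day 2 against day 0 was -1.35 ± 0.20 (SE), 2.56-fold, which did not pass (limma, adjusted p = 0.164). A second Itgb1 probe read -0.44 for the same comparison, and the size of the change moved between -2.32 and -0.50 over 18 alternative settings, none of which made it pass. On day 5 against day 0 Itgb1 read -0.60 (adjusted p = 0.145).

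The other integrins did not pass either. Itga5, the alpha subunit of the fibronectin receptor, differed in sign between clones, with day 5 minus day 0 at -0.65 in clone 7 and 0.75 in clone 5. Opposite signs with a size of at least 0.5 each were seen for 1 of 28 members and 1.57% of all genes in this comparison, and for no member on day 2 against day 0 (0.507%) or on day 5 against day 2 (0.316%). Itgav, the alpha-V subunit that binds vitronectin and fibronectin, read -0.07 (limma, adjusted p = 0.865) close to the limit of detection.

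Filament regulators sit along actin filaments. Tagln2, a transgelin that bundles actin, read lowest on day 2 without passing the test. Its log2 signal was 9.53 in clone 7 and 10.12 in clone 5 on day 0, 8.55 and 9.32 on day 2, and 9.75 and 10.04 on day 5. Both day 2 values lay below those of the other days, an order whose share over all genes was not counted. Day 2 against day 0 was -0.89 ± 0.19 (SE, limma, adjusted p = 0.187), day 5 against day 2 was 0.96 ± 0.19 (adjusted p = 0.065), and day 5 against day 0 was 0.07.

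Of the fibroblast markers, Thy1 and Fstl1 also read lower on day 2 than on day 0 in both clones, and Fbn1 and Twist1 did not. The summed signal of the 4 measured markers, which overlapped between these days, was 335 to 827 on day 0, 108 to 376 on day 2 and 435 to 512 on day 5, with Thy1 at -1.32, Fstl1 at -1.23, Fbn1 at 0.09 and Twist1 at -0.06 on the log2 scale for day 2 against day 0, none past the test. Their part in the low day 2 values of Itgb1 and Tagln2 was not tested.

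The tropomyosins, which coil along filaments and set which proteins bind them, did not pass in any comparison. On day 5 against day 0 Tpm1 read 0.36 ± 0.19 (SE, limma, adjusted p = 0.334), Tpm2 -0.02 and Tpm4 0.04. Cnn2, a calponin that steadies filaments, read -0.03 and lay between 6.09 and 6.19 on all 6 arrays.

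Cross-linkers join filaments into networks. Actn4, a non-muscle alpha-actinin, came closest to the test of the members that did not pass in this comparison, with -0.62 ± 0.17 (SE) on day 5 against day 0 (limma, adjusted p = 0.094). Its log2 signal was 9.45 in clone 7 and 9.61 in clone 5 on day 5, against 10.14 and 10.16 on day 0. The groups did not overlap, an order whose share over all genes was not counted. The other Actn4 probes read -0.49 and -0.84. Actn1, the other non-muscle alpha-actinin, read -0.42 (adjusted p = 0.230), and Flna, filamin A, read 0.66 ± 0.23 (SE, adjusted p = 0.162), with 0.23 in clone 7 and 1.08 in clone 5.

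At focal adhesions themselves, Tes was the only member that passed among 8 measured of 9 listed. Vcl, vinculin, read 0.31 ± 0.18 (SE) on day 5 against day 0 (limma, adjusted p = 0.385). The scaffold Pxn, paxillin, read -0.02, the pseudokinase Ilk, which couples integrins to actin, read -0.03, and Zyx, zyxin, read -0.11. Of the Ena/VASP proteins, which lengthen filaments, Vasp read 0.16, Evl 0.17 and Enah, which encodes the testin partner Mena, -0.23 (adjusted p = 0.689). The Enah clones differed in sign on this probe, with -0.80 in clone 7 and 0.34 in clone 5, and its other detected probes read 0.14 and 0.03, 1 of them with the clone signs the other way round. Talin (Tln1) was not measured by its single probe.

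The YAP and SRF targets Ctgf and Cyr61 encode secreted matricellular proteins. On day 5 against day 0 Ctgf read 0.49 ± 0.17 (SE, limma, adjusted p = 0.158) and Cyr61 0.51 ± 0.19 (adjusted p = 0.170). Both clones read above 0 for each gene on the probe used, and their second detected probes read 0.42 and 0.26. On the second Cyr61 probe the clones differed in sign, with -0.12 in clone 7 and 0.64 in clone 5. Cyr61 was dim, with bead signals of 106 to 136 on the probe used. Neither passed. Ankrd1, a further YAP target, was not measured.

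**Figure D3:**
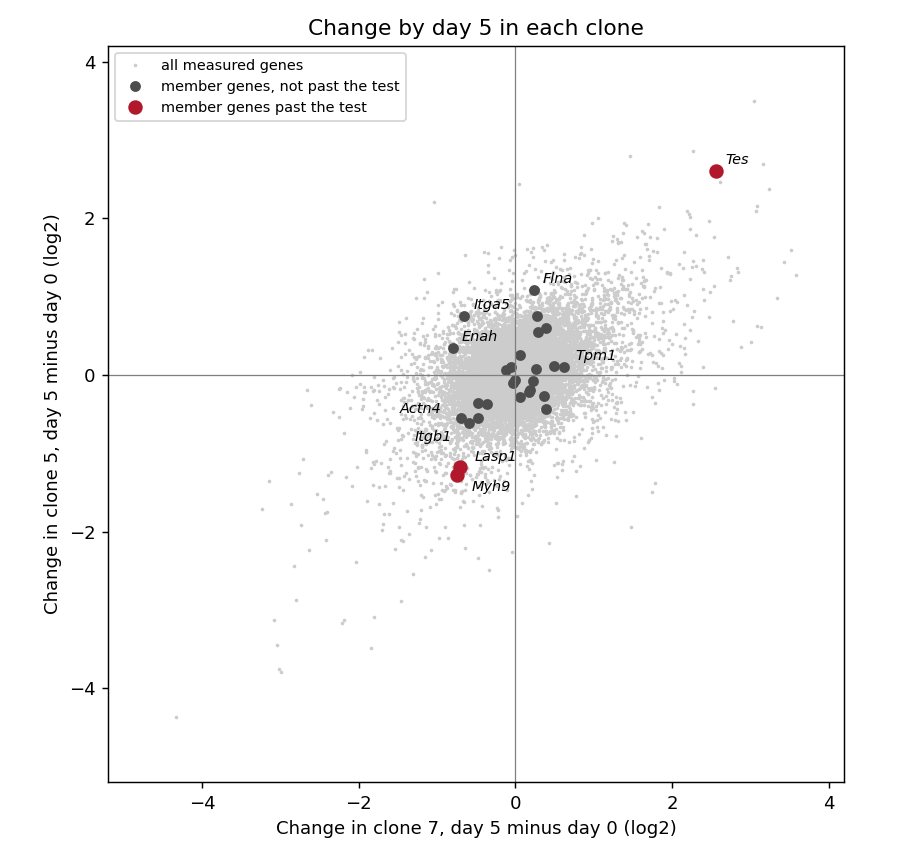
Each point is a gene, with its log2 change on day 5 against day 0 in clone 7 on the horizontal axis and in clone 5 on the vertical axis. Small grey points are all measured genes, dark points are member genes not past the test and red points are Tes, Myh9 and Lasp1. Tes lies at 2.56 and 2.60, Itga5 and Enah lie in the upper left, where the clones differ in sign, and most members lie near the centre.

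The difference between day 5 and day 0 had the same sign in both clones for 18 of 28 members, which is 64.3%, against 60.6% of all genes. For day 5 against day 2 the count was 22, or 78.6%, against 66.2%, and for day 2 against day 0 it was 17, or 60.7%, against 62.7%. Between clone 7 and clone 5 no member passed (0% of all genes), with 4 members and 1356 genes at an unadjusted p under 0.05 in limma. No member differed at least 2-fold between the clones in 1 direction on all 3 days, as 0.0914% of all genes did.

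Lmna, which encodes the A-type lamins of the nuclear envelope and scales with tissue stiffness, had the largest clone difference of the members. Its log2 signal in clone 7 was 9.01, 9.17 and 8.96 on days 0, 2 and 5, against 8.49, 8.33 and 8.59 in clone 5, so clone 7 was higher on all 3 days. The difference was 0.58 ± 0.15 (SE) and did not pass (limma, adjusted p = 0.230), and all 6 Lmna probes read above 0, from 0.25 to 0.58. On day 5 against day 0 Lmna read 0.02 (adjusted p = 0.962). Tagln2 read -0.55 (adjusted p = 0.252) and Cyr61 0.47 (adjusted p = 0.316) for clone 7 against clone 5.

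The genes that mark contractile smooth muscle and myofibroblasts were among those not measured. Acta2 (5 probes), Actg2, Tagln (2 probes), Cnn1, Cald1 (4 probes), Tln1 and Ankrd1 (2 probes) gave 96 readings, of which 7 were detected (7.29%), namely 3 of Acta2, 3 of Cald1 and 1 of Ankrd1. Their bead signals ran from 84.1 to 104, and the lowest detected signal of an array was 98.6 to 101. These are readings near the background, so only an upper bound on the signal is known. Near the rule's threshold, Myl9 entered with a detection p-value of 0.0438 on the weaker array of its best day, and Ankrd1 and Acta2 stayed out at 0.0962 and 0.104.

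**Figure D4:**
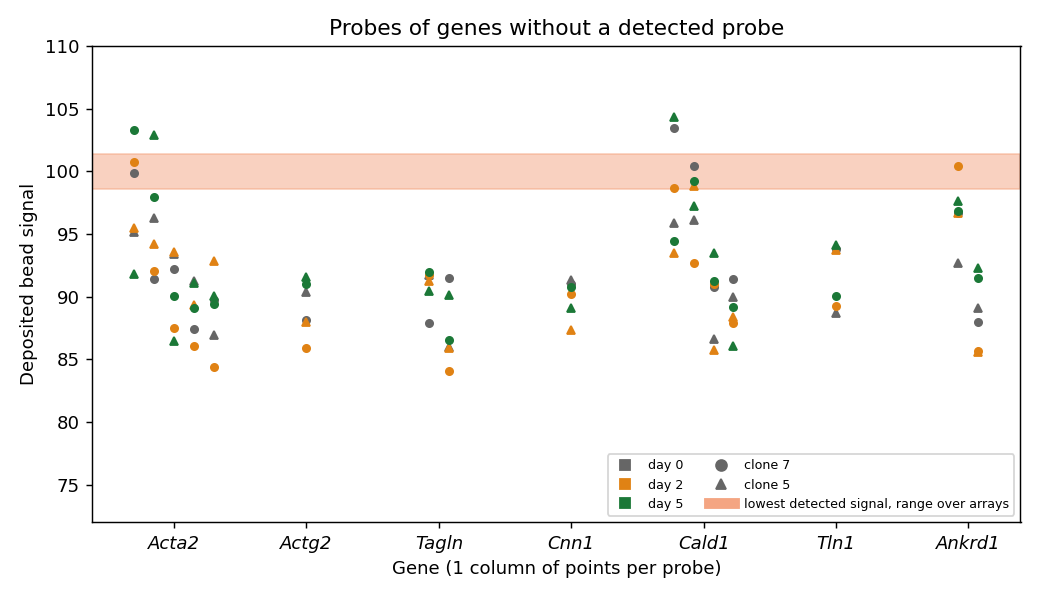
Deposited bead signal of each probe of the 7 genes with probes but none kept, with 1 column of points per probe, colours for days, circles for clone 7 and triangles for clone 5. The shaded band spans the lowest detected signal of the 6 arrays, 98.6 to 101. Most points lie below it, and the few above belong to Acta2 and Cald1.

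Other genes of the pathway were counted from lists of actin dynamics, nucleation, adhesion and SRF or YAP regulation. On day 5 against day 0, 1 of 28 measured actin dynamics genes passed as lower and none as higher, while 21 read below 0 and 7 above. Of all genes 4.26% passed in either direction and 1.8% as lower. The gene was Msn, moesin, which ties actin to the membrane (-0.97, limma, adjusted p = 0.028). Its log2 signal in clone 7 on day 5 was 4.66, below the lowest detected 4.68 of that array. The size of its fall is therefore limited by the background. Among other adhesion genes 1 of 22 passed as lower, Tns3, the adhesion protein tensin 3 (-1.34, limma, adjusted p = 0.017), while 15 read below 0 and 7 above. None of 13 nucleation genes passed. In the list of SRF and YAP regulators 1 of 10 passed as lower, Tead4, a partner of YAP (-1.32, limma, adjusted p = 0.015), while 7 read below 0 and 3 above. The list medians were -0.18 for actin dynamics, -0.20 for adhesion, 0.00 for nucleation and -0.07 for the regulators. No gene of these lists passed in another comparison. Srf (-0.02, adjusted p = 0.974), Yap1 (0.01, adjusted p = 0.981) and Wwtr1, the gene of the YAP relative TAZ (0.12, adjusted p = 0.782), did not pass, Mkl1 and Mkl2 were not measured, beta-actin (Actb) read -0.29 (adjusted p = 0.377), and Actg1 had no probe.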

How the data were processed

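Cells of 2 clones on 3 days were measured on 6 arrays, and the labels do not say that any culture was repeated. With clone as a block, a steady difference between the clones is taken out. The p-values therefore rest on how far the day changes differ between the 2 clones, array noise included, and on a spread pooled over all genes. The pooled part weighs more, with 5.24 prior against 2 residual degrees of freedom. A small standard error is therefore not a measure of how closely the clones match for that gene. The deposited bead signals are intensity values without normalization by the authors, beside a deposited detection p-value per probe. A deposited table of series values holds log2 numbers, and the authors' table of 698 probes lists log2 fold changes with unadjusted p-values, per the file headers. The software used was not given in the sources used here.

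Background was removed by limma's normexp correction, using detection p-values (offset 16), and signals were then quantile normalised and log2 transformed with limma 3.58.1 in R 4.3.3. The kept probe with the highest mean stood for a gene. Day and clone were the terms of a linear model of all 12030 genes (lmFit, eBayes, 2 residual and 5.24 prior degrees of freedom), with Benjamini-Hochberg adjustment over all genes at 0.05. Standard errors are those of the fit. Clone is the block because the same 2 lines were sampled on each day; deviations from day means correlated at 0.36, -0.07 and 0.34 between days. Symbols were updated with a RefSeq table, which renamed 8037 probes and left 9504 with the deposited name.

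Every measured member was named; values by array are given for members past the test, those changed at least 2-fold in both clones, and a few others chosen after their values were seen, namely Tagln2, Actn4, Lmna and Itga5. From the pathway lists, passing genes and 7 set regulators and actins were named. The result of 1 further pathway list is not reported here. Members and lists were chosen with earlier results of these data known. The procedure was also run on simulated data. Their errors were independent and drawn from the spread of this fit, so the run cannot test background or culture effects. The number of arrays limits precision. Alternatives were another offset, no background correction, median scaling, the series values, other detection filters, probe means or single probes, other variance shrinkage, clone as a random block (statmod 1.5.0) or no block, 4 arrays only, the authors' unpaired test, a threshold of 0.1 and leaving out each array.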

Additional observations from a re-analysis of the deposited data

Results flagged for a closer look

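Itga5 read opposite ways in the clones on day 5 against day 0, at -0.65 on the log2 scale in clone 7 and 0.75 in clone 5. Its log2 signal on day 5 was 6.63 in clone 7 and 7.13 in clone 5, against 7.29 and 6.37 on day 0, and its second probe read -0.43 and 0.33. The difference between the clones was not tested, as each has 1 array per day.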

How the results depend on the processing

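The 3 member calls on day 5 against day 0 became 0 with the authors' series values, without a detection filter and with the authors' unpaired test, and 1 (Tes) without background correction, with no replicate block and with only the 4 arrays of these days. Leaving out 1 array gave 1 to 2 calls, Tes each time and Myh9 without the day 5 array of clone 7. For day 5 against day 2 the 1 call became 0 with the series values, no detection filter or the unpaired test, and 2 with an adjusted p of 0.1 or with trended and robust shrinkage. Leaving out 1 array gave 0 to 2 calls there, with 0 without either day 2 array (Tes adjusted p = 0.0558 without clone 5 and 0.225 without clone 7) and 2 without the day 5 array of clone 5. The causes were not tested. Day 2 against day 0 and the clone comparison had 0 calls under each alternative run.

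Tes passed on day 5 against day 0 in 16 of 19 alternatives (log2 change 2.11 to 2.73), Myh9 in 8 (-1.23 to -0.80) and Lasp1 in 5 (-1.15 to -0.74). These counts include the main fit read at a threshold of 0.1, which each gene called at 0.05 must pass. None of the 4 called values changed sign in 86 alternatives, and 35 of these no longer passed. Of 2102 alternatives of the 108 uncalled values, 126 changed sign and 4 passed. Several kinds of alternative could not change a sign, because they alter only the test or leave out an array of the day not compared. Myh9, for example, read -1.01 on day 5 against day 0 with either day 2 array left out, as in the main fit. For such alternatives an unchanged sign shows nothing, and their share of these totals was not counted. Dropping the clone block ended the calls of Myh9 and Lasp1 and no other member call. Members near the background, among them Myl9, Itgav, Itgb1, Vasp and Cyr61, are limited by signal over background.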
